A study of Bos taurus with 2 samples.

Results

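The genes examined were those of the mitochondrial carriers and of the machinery that brings proteins into mitochondria, found by symbol: SLC25A followed by a number, TIMM or TOMM followed by a number, and VDAC followed by a digit. They made 59 of the 21209 gene symbols in the authors' values, with 36 SLC25A, 11 TIMM, 9 TOMM and 3 VDAC genes. The RNA-Seq data hold 1 pool of bovine embryos injected with siRNA against CDKN1C (CDKN1C-siRNA-injected) and 1 control pool (Sham-injected). Both kinds of embryo came from oocytes matured and fertilized in vitro with the cumulus cells stripped off before injection, and both were pierced with the microinjection needle, without delivery of siRNA in the sham group. CDKN1C, the targeted inhibitor of the cell cycle, was 14.6 FPKM in siRNA-injected embryos and 49.5 FPKM in sham embryos, 3.40-fold lower after siRNA injection. The number and sex of the embryos in each sequenced pool are not given in the sources used here. Embryos of the treatment groups taken for qRT-PCR were blastocysts, and the stage of the sequenced pools was not stated separately.

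Mitochondria make few of their own proteins, so that nearly all are built in the cytosol and imported. The TOM complex is the entry gate of the outer membrane, the TIM23 complex passes proteins with a presequence into the matrix and the inner membrane, the TIM22 complex inserts carriers into the inner membrane, and small TIM chaperones escort carriers across the space between the membranes. The SLC25 carriers then exchange nucleotides, phosphate, acids, amino acids and cofactors across the inner membrane, while VDAC channels let small metabolites through the outer one. Before the blastocyst forms, embryos depend largely on mitochondrial oxidation of pyruvate and amino acids for ATP.

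FPKM values are scaled to the length of the transcript as well as to the sequencing, so levels of different genes are compared here per length. The RNA was amplified before sequencing, and how far this shifts the level of 1 gene against another was not tested. Each difference is a log2 ratio, siRNA-injected to sham, with 1 FPKM added on both sides, which understates the change of low genes. Only genes whose mean over the 2 pools reached 1 FPKM were compared. With 1 library per group there are no replicates, no test between the pools was possible, and no value has an error. The depth of each library is unknown, so a call at 2-fold or more is a rule of size and not of significance. All values describe these pools only.

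Facts of the pools that stand beside every value below are these. Total FPKM was 1051057 in the injected pool and 1384061 in the sham pool. The median log2 difference of the 7984 genes compared was -0.17 as deposited. After both pools were set to the same total it was 0.17, over the 8014 genes whose mean then reached 1 FPKM. Shares of all genes given for equal totals are also of these 8014. All 7 trophectoderm markers and all 3 markers of the inner cell mass reached a mean of 1 FPKM, with summed levels of 7192 and 75.7 FPKM in siRNA-injected embryos, against 17096 and 199.9 FPKM in shams. Most of the trophectoderm sum was KRT18 and KRT8, and of the 7 markers 4 were lower in injected embryos and 3 higher, with IFNT2 at 135 against 31.1 FPKM, TFAP2C at 40.7 against 34.1 FPKM and ELF5 at 4.64 against 3.37 FPKM. Most of the inner cell mass sum was POU5F1, at 56.3 against 170 FPKM, with NANOG at 15.1 against 23.9 FPKM and SOX2 at 4.37 against 5.87 FPKM. Of 3 hypoblast markers GATA6 passed, at 14.0 against 13.7 FPKM. Of 7 fibroblast and mesenchyme markers 3 reached a mean of 1 FPKM, summing over the list to 25.3 FPKM in injected embryos against 2.79 FPKM in sham embryos. Most of this was VIM, at 18.5 against 1.46 FPKM, and LUM, at 4.77 against 0.138 FPKM. On this list 4 markers were higher in injected embryos and 2 lower, with COL1A1 listed at 0 in both. Of 7 cumulus and granulosa markers 3 reached a mean of 1 FPKM. These were FSHR at 4.87 against 5.69 FPKM, HSD3B1 at 3.29 against 15.7 FPKM and STAR at 1.91 against 2.60 FPKM. The list summed to 10.2 against 24.3 FPKM, with AMH and FOXL2 listed at 0 in both. Oocyte markers summed to 9.62 FPKM in siRNA-injected embryos and 24.2 FPKM in sham embryos over 3 of 4 genes found. Nearly all of this was ZP3, at 9.39 against 23.7 FPKM, the only 1 of them to reach a mean of 1 FPKM. Blood markers summed to 0.634 against 0.234 FPKM. The part of cell makeup in the differences below was not tested, and fewer cells of a type and less RNA per cell cannot be told apart in pooled embryos.

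Of the 59 genes, 43 reached a mean of 1 FPKM, and 35 of these lay within 2-fold between the pools. SLC25A11, TIMM10, TIMM50, TOMM40L, TIMM17B, SLC25A28 and SLC25A39 were 2-fold or more lower after siRNA injection, and SLC25A27 was 2-fold or more higher. These 7 lower genes are 16.3% of the 43, beside 15.7% of all genes compared, and the 1 higher gene is 2.33%, beside 4.92%. As a group the genes were therefore near the background in the share that was lower. Their median log2 difference was -0.06, against -0.17 for all genes, and it turned to 0.11 when the median of all genes was set to 0 and to 0.24 with equal total FPKM in the pools. With the median set to 0, 5 members were lower and 1 higher, beside 11.0% and 7.72% of all genes, and with equal totals 4 were lower and 1 higher, beside 7.32% and 12.0%. At 4-fold, with 1 FPKM added, none of the 43 was called in either direction, beside 1.05% of all genes lower and 0.413% higher. As plain ratios of FPKM, for which no share of all genes was taken, SLC25A11 was 4.47-fold lower and SLC25A27 5.33-fold higher. The differences ran from -1.95 for SLC25A11 to 1.12 for SLC25A27. The members' summed FPKM was 4578 in the injected pool and 5758 in the sham pool, which was 0.436% and 0.416% of all FPKM in those pools.

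**Figure D1:**
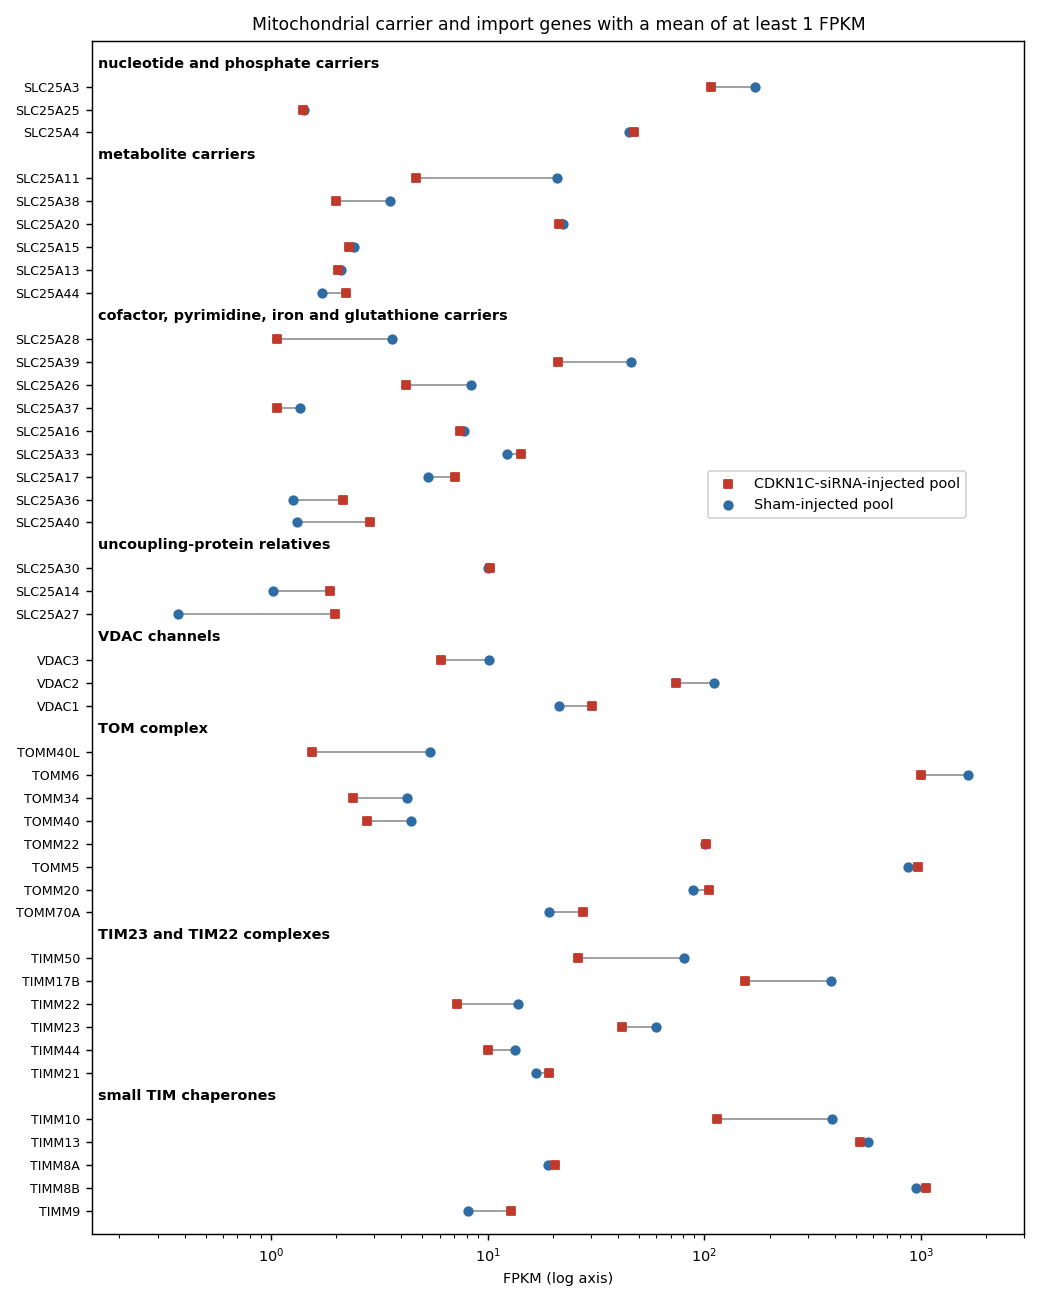
FPKM (horizontal, log axis) of the 43 carrier and import genes that were compared, grouped by role, in the CDKN1C-siRNA-injected pool (red squares) and the sham-injected pool (blue circles), 1 library each, with a grey line joining the 2 values of a gene. The longest lines to the left belong to SLC25A11, TOMM40L, TIMM10, SLC25A28 and TIMM50, and the longest line to the right to SLC25A27.

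Outer-membrane entry genes that were compared differed less than 2-fold between the pools, with TOMM40L as the exception. TOMM20 and TOMM70A encode the receptors that recognise presequences and carriers. TOMM20 was 105 FPKM in injected embryos against 89.0 FPKM in sham embryos, and TOMM70A was 27.5 against 19.1 FPKM. TOMM22, the central receptor that docks them to the channel, was 102 FPKM in siRNA-injected embryos and 101 FPKM in sham embryos, the closest pair of values in the complex. The small subunits TOMM5 and TOMM6, which help to assemble and stabilise it, were among the most abundant genes of the whole group. TOMM5 was 970.4 FPKM in injected embryos against 874 FPKM in sham embryos, while TOMM6 was 1005 against 1648 FPKM, a log2 difference of -0.71.

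TOMM40, the pore of the complex, had far lower values than its receptor TOMM22, at 2.77 FPKM in siRNA-injected embryos and 4.44 FPKM in sham embryos. Its paralog TOMM40L, at 9118316 to 9126857 on chromosome 3 (bosTau7), was 1.54 FPKM in injected embryos against 5.42 FPKM in sham embryos, 3.52-fold lower. Its log2 difference of -1.34 fell short of 2-fold with a pseudocount of 5 FPKM, at -0.67, and after a fit on locus length, at -0.91. In the injected pool TOMM40 was therefore the higher of these pore genes, with a TOMM40 to TOMM40L ratio of 1.80, and in the sham pool the lower, with a ratio of 0.820. The locus given for TOMM40L is shared with NR1I3, which was listed at 0 in both pools. TOMM34, a cytosolic cochaperone of import, was 2.39 against 4.24 FPKM. Of 8 TOMM genes compared, 1 (12.5%, beside 15.7% of all genes) was at least 2-fold lower and none higher (beside 4.92%), with a median of -0.26 as deposited that turned to 0.09 with equal totals and to 0.15 after a fit on locus length. TOMM20L was listed at 0 in the injected pool and at 0.484 FPKM in the sham pool, below the level needed for comparison.

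In the presequence translocase, the receptor gene TIMM50 and the channel gene TIMM17B were lower in the injected pool, while the other TIMM subunits compared stayed within 2-fold. TIMM17A, the paralog of TIMM17B, was not among the symbols found, so the summed TIMM17 level is not known. PAM16 of the import motor, outside the symbol rule, was also lower, at 0.610 against 3.34 FPKM, and is given further below with other motor genes. TIMM50, which receives presequences as they leave the TOM complex, lies on chromosome 18 of bosTau7 from 48552438 to 48559538. It was 26.0 FPKM in siRNA-injected embryos and 80.5 FPKM in sham embryos, 3.10-fold lower. Its log2 difference of -1.59 ran from -1.63 to -1.13 over 8 other settings, of which the filters and the highest locus could not move it. TIMM17B, on chromosome X from 55594212 to 55598007, was 153 FPKM in injected embryos against 384 FPKM in sham embryos, 2.50-fold lower. Its difference of -1.32 fell short of 2-fold with equal total FPKM in the pools, at -0.92, and after a fit on locus length, at -0.79.

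TIMM23, the presequence-sensing partner of TIMM17 in the same channel, was 41.9 FPKM in siRNA-injected embryos and 59.7 FPKM in sham embryos. TIMM44, which tethers the import motor to the channel, was 10.1 against 13.4 FPKM. TIMM21, which links the translocase to the TOM complex and to respiratory chain assembly, was 19.1 against 16.8 FPKM. Ratios within a pool are not moved by any scaling of that pool. The trend with locus length given further below does not cancel in a ratio of genes with loci of unlike length. The loci are 3.795 kb for TIMM17B, 7.10 kb for TIMM50, 12.991 kb for TIMM44 and 20.794 kb for TIMM23. After the fit on locus length their log2 differences were -0.79, -1.13, -0.06 and -0.34 in that order. TIMM50 was 0.621 of TIMM23 in the injected pool and 1.35 of it in the sham pool, and TIMM17B was 3.66 and 6.43 times TIMM23 in the injected and the sham pool, whereas TIMM44 to TIMM23 differed little, at 0.241 in the injected pool and 0.224 in the sham pool. TIMM22, the pore of the separate carrier translocase, was 7.21 FPKM in injected embryos against 13.7 FPKM in sham embryos. Of these 6 inner-membrane genes, 2 were called lower and none higher, beside 15.7% and 4.92% of all genes. Their median of -0.67 was -0.51 with the median of all genes set to 0, -0.30 with equal totals and -0.34 after the length fit, and only TIMM50 was called lower under the last 2 of these.

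The small TIM chaperones split inside one complex. TIMM9 and TIMM10 form the ring-shaped chaperone that carries carrier precursors to TIM22. TIMM10, on chromosome 15 from 81326408 to 81329302, was 114 FPKM in siRNA-injected embryos and 389.7 FPKM in sham embryos, 3.41-fold lower. TIMM9, on chromosome 10, was 12.8 FPKM in injected embryos against 8.14 FPKM in sham embryos. The TIMM10 to TIMM9 ratio was 8.93 in the injected pool and 47.9 in the sham pool, a 5.36-fold gap, which was the widest of the 18 ratios of partners and paralogs formed. The listed loci are 2.894 kb for TIMM10 and 149.867 kb for TIMM9. After the fit on locus length their log2 differences were -1.24 and 0.51. The locus of TIMM9 is shared with KIAA0586, which was 0.541 against 0.532 FPKM.

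TIMM8A, TIMM8B and TIMM13 belong to the second ring of this kind, which assists proteins such as TIMM23, and they hardly differed. TIMM8B was 1053 FPKM in siRNA-injected embryos and 947 FPKM in sham embryos. TIMM13 was 523 against 566 FPKM, a log2 difference of -0.11 that turned positive under both other scalings. TIMM8A, mutated in human deafness-dystonia syndrome, was 20.4 FPKM in injected embryos against 18.9 FPKM in sham embryos. TIMM8B was 51.6 times TIMM8A in the injected pool and 50.1 times in the sham pool, the least changed of the ratios. FXC1, an older name of TIMM10B in the RefSeq gene table, falls outside the symbol rule and was 20.3 against 22.8 FPKM. Of the 5 small chaperone genes, 1 was at least 2-fold lower and none higher, beside 15.7% and 4.92% of all genes. Their median of 0.11 was 0.27 with the median of all genes set to 0, 0.48 with equal totals and 0.51 after the length fit.

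**Figure D2:**
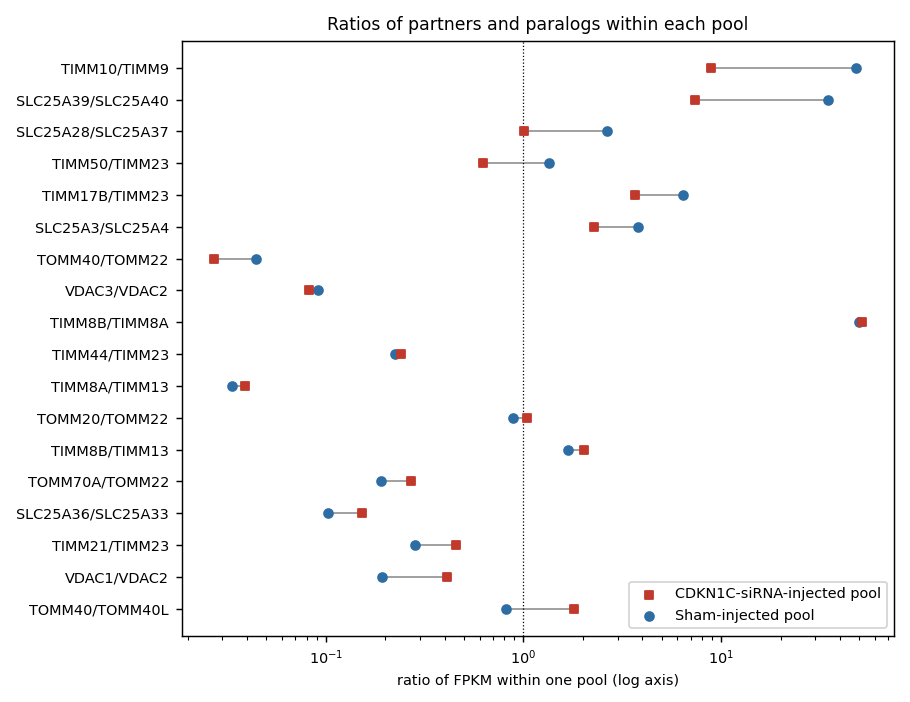
Ratios of FPKM within each pool (horizontal, log axis) for 18 pairs of partners in a complex or pathway and of paralogs, in the CDKN1C-siRNA-injected pool (red squares) and the sham-injected pool (blue circles), 1 library each, ordered by the change of the ratio; the dotted line marks equal levels of both genes. TIMM10/TIMM9 and SLC25A39/SLC25A40 lie farthest to the left in the injected pool relative to the sham pool, and TIMM8B/TIMM8A is nearly the same in both.

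VDAC channels, the main route of ATP and metabolites across the outer membrane, stayed within 2-fold but differed among themselves. VDAC1 was 30.4 FPKM in siRNA-injected embryos and 21.2 FPKM in sham embryos. VDAC2 was 74.2 against 111 FPKM and VDAC3 was 6.11 against 10.1 FPKM. VDAC1 therefore made up 27.4% of the summed VDAC level in the injected pool and 14.9% in the sham pool, and VDAC2, which in mouse restrains the cell death protein BAK, made up 67.0% and 77.9%. The order VDAC2, VDAC1, VDAC3 was the same in both pools.

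Carriers of nucleotides and phosphate feed ATP synthase and export its product. Of the 7 such genes found, 3 were compared. None of these 3 differed by 2-fold, beside 15.7% of all genes lower and 4.92% higher. SLC25A3, the phosphate carrier, was 108 FPKM in injected embryos against 171 FPKM in sham embryos, and SLC25A4, an ADP/ATP carrier, was 47.2 against 44.9 FPKM. SLC25A3 was thus 2.28 times SLC25A4 in the injected pool and 3.80 times in the sham pool. The ADP/ATP carrier genes SLC25A5 and SLC25A6 were not among the symbols found, so the summed level of ADP/ATP carriers is not known. SLC25A25, of the calcium-regulated ATP-Mg/phosphate carriers, was 1.40 against 1.42 FPKM. Its relatives SLC25A23 and SLC25A24 had means under 1 FPKM, at 0.610 against 0.698 FPKM and 0.536 against 0.144 FPKM.

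SLC25A11 had the largest log2 difference of the 43 genes with 1 FPKM added. With 0.1 FPKM added SLC25A27 led narrowly, at 2.142 against -2.138 for SLC25A11, and with 5 FPKM added TIMM10 led, at -1.73 against -1.42. SLC25A11 encodes the oxoglutarate carrier, which with the aspartate-glutamate carriers forms the malate-aspartate shuttle that moves reducing equivalents from cytosolic NADH into mitochondria. At 26651705 to 26654434 on chromosome 19 (bosTau7), it was 4.68 FPKM in siRNA-injected embryos and 20.9 FPKM in sham embryos, 4.47-fold lower. Its log2 difference of -1.95 ran from -2.14 to -1.42 over the 8 other settings, of which the filters and the highest locus could not move it. The aspartate-glutamate carrier SLC25A13 was 2.03 against 2.10 FPKM, and its paralog SLC25A12 was 0.220 against 0.0848 FPKM, under the level for comparison.

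Other metabolite carriers that were compared lay within 2-fold. SLC25A20, which brings acylcarnitines in for fatty acid oxidation, was 21.3 FPKM in injected embryos against 22.3 FPKM in sham embryos. SLC25A15, the ornithine carrier, was 2.30 against 2.41 FPKM, and SLC25A44, a carrier of branched-chain amino acids, was 2.23 against 1.72 FPKM. SLC25A38, which supplies glycine for heme synthesis, was 1.99 against 3.56 FPKM. The small differences of SLC25A13, SLC25A15 and SLC25A20 were below 0 as deposited and above 0 under both other scalings. Of 6 metabolite carriers compared, 1 (16.7%, beside 15.7% of all genes) was at least 2-fold lower and none higher (beside 4.92%).

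Carriers of iron and glutathione included both a lower member and a steadier or higher paralog. SLC25A39 imports glutathione into mitochondria, and SLC25A40 is its close relative. SLC25A39, on chromosome 19 from 45153912 to 45165097, was 21.1 FPKM in siRNA-injected embryos and 46.0 FPKM in sham embryos, 2.18-fold lower, while SLC25A40 was 2.86 against 1.32 FPKM, 2.16-fold higher as a ratio of FPKM but short of 2-fold after adding 1, at a log2 difference of 0.73. The SLC25A39 to SLC25A40 ratio was 7.36 in the injected pool and 34.8 in the sham pool. Their loci are 11.185 and 79.861 kb, and after the fit on locus length their log2 differences were -0.73 and 0.63. The SLC25A39 locus is shared with LOC100850782, at 1.03 against 0.244 FPKM.

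Of the iron importers, SLC25A28 (mitoferrin-2), on chromosome 26 from 18806780 to 18817458, was 1.07 FPKM in injected embryos against 3.60 FPKM in sham embryos, 3.37-fold lower. SLC25A37 (mitoferrin-1) was 1.07 against 1.36 FPKM over the loci with that symbol. The mitoferrin genes were thus level in the injected pool, with a SLC25A28 to SLC25A37 ratio of 1.003, against 2.65 in the sham pool. Both genes were close to the level needed for comparison. The log2 difference of SLC25A28, -1.15 as deposited, was from -0.99 to -0.50 with the median of all genes set to 0, equal totals, a fit on locus length or a pseudocount of 5 FPKM, and that of SLC25A39, -1.09 as deposited, was from -0.97 to -0.71 under the same alternatives.

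Carriers of other cofactors and of pyrimidine nucleotides, which are needed to copy mitochondrial DNA, stayed within 2-fold after adding 1 FPKM. SLC25A26, which takes up S-adenosylmethionine, was 4.20 FPKM in siRNA-injected embryos and 8.42 FPKM in sham embryos, and its log2 difference of -0.86 was the nearest to a 2-fold decrease among genes not called. Its listed locus of 279.733 kb is shared with LRIG1 and with LOC100335469, at 138 against 168 FPKM, so that reads of overlapping transcripts may be hard to assign. The pyrimidine carriers SLC25A33 and SLC25A36 were 14.2 against 12.3 FPKM and 2.16 against 1.26 FPKM. SLC25A17, a carrier of peroxisomes, was 7.06 against 5.28 FPKM, and SLC25A16, linked to coenzyme A, was 7.44 against 7.79 FPKM.

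SLC25A27, a relative of the uncoupling proteins known mainly from brain, was the gene called higher. It was 1.98 FPKM in injected embryos against 0.372 FPKM in sham embryos, a 5.33-fold ratio, and its log2 difference was 1.12. It reached a mean of at least 1 FPKM through the injected pool, and with a pseudocount of 5 FPKM its difference was 0.38. SLC25A14, another relative, was 1.88 against 1.02 FPKM at a locus shared with RAB33A and ZNF280C, and SLC25A30 was 10.3 against 10.1 FPKM. The uncoupling protein genes UCP1, UCP2 and UCP3 themselves were under 1 FPKM, with UCP2 at 0.0940 FPKM in siRNA-injected embryos and 0.302 FPKM in sham embryos, and UCP3 listed at 0 in both.

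**Figure D3:**
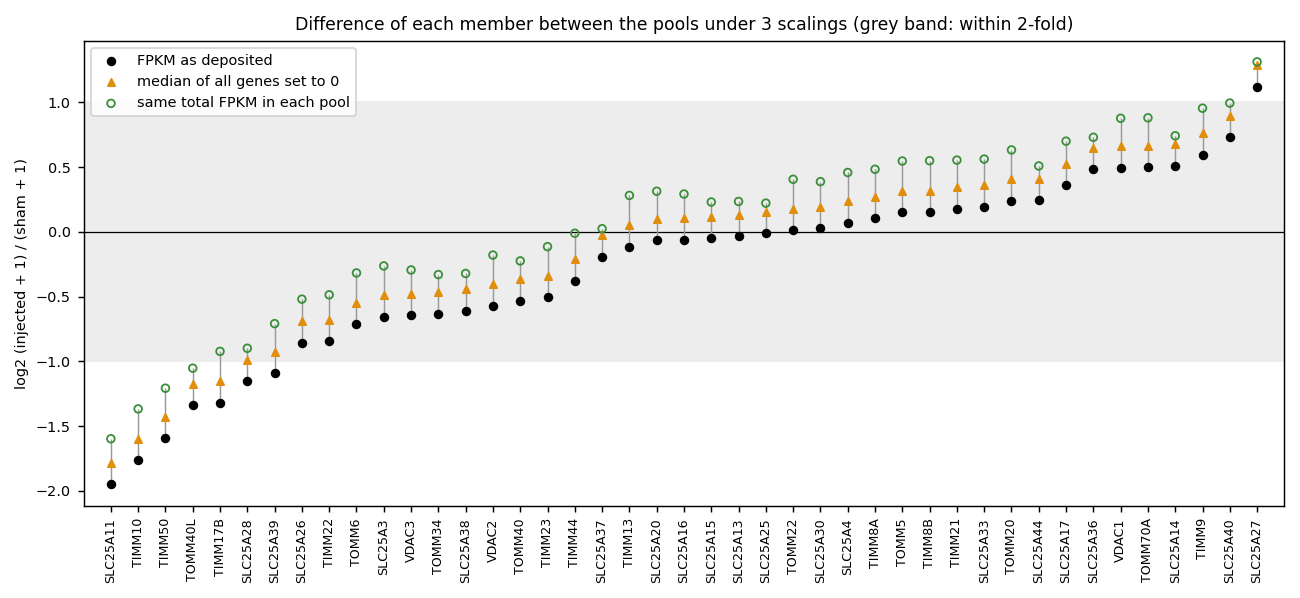
Log2 ratio of injected to sham FPKM, 1 added to each, for the 43 genes in rising order, from FPKM as deposited (black), after the median of all genes was set to 0 (orange triangles) and with equal total FPKM in the pools (green circles); the grey band marks less than 2-fold. SLC25A11, TIMM10, TIMM50 and TOMM40L stay below the band in all 3 scalings and SLC25A27 stays above it, while TIMM17B, SLC25A28 and SLC25A39 enter the band in at least 1.

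The 16 genes under a mean of 1 FPKM were 15 SLC25A genes and TOMM20L. Of these, 5 were listed at 0 in both pools (SLC25A2, SLC25A42, SLC25A45, SLC25A47 and SLC25A48), and SLC25A46 was at 0 in injected embryos and at 0.0435 FPKM in shams. SLC25A29, a carrier of basic amino acids, was 0.177 FPKM in injected embryos against 0.894 FPKM in sham embryos. SLC25A31, the ADP/ATP carrier known from testis, was 0.0502 against 0.0522 FPKM. SLC25A35 had the highest mean of the 16, at 0.573 against 1.02 FPKM. All 11 TIMM and all 3 VDAC genes passed the level for comparison.

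The differences moved with the length of the locus. The 7 lower genes had loci of 2.729 to 11.185 kb with a median of 7.10 kb, and the other 36 compared had loci of 1.179 to 279.733 kb with a median of 15.9 kb. Spearman's rho between locus length and log2 difference was 0.45 over the 43 genes and 0.29 over the 7984 genes, across genes of the same 2 libraries, and 0.46 over 38 members whose locus no other symbol shares. After a smooth fit on locus length over all genes was taken off, 3 members stayed at least 2-fold lower (SLC25A11, TIMM10 and TIMM50) and 1 higher, beside 8.64% and 7.52% of all genes. Genes with loci of 1 to 2 kb were lower as a rule, with a median of -0.54 over 305 genes, of which 27.5% were at least 2-fold lower. The 4 members of that length, TIMM13, TOMM6, TOMM22 and TIMM8B, had differences from -0.71 to 0.15, and none was called. At 2 to 5 kb 3 of 7 members (42.9%) were at least 2-fold lower, beside 28.1% of all genes. At 5 to 20 kb 4 of 17 members (23.5%) were lower, beside 21.2%, and at 20 to 1000 kb none of 15, beside 7.93%.

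**Figure D4:**
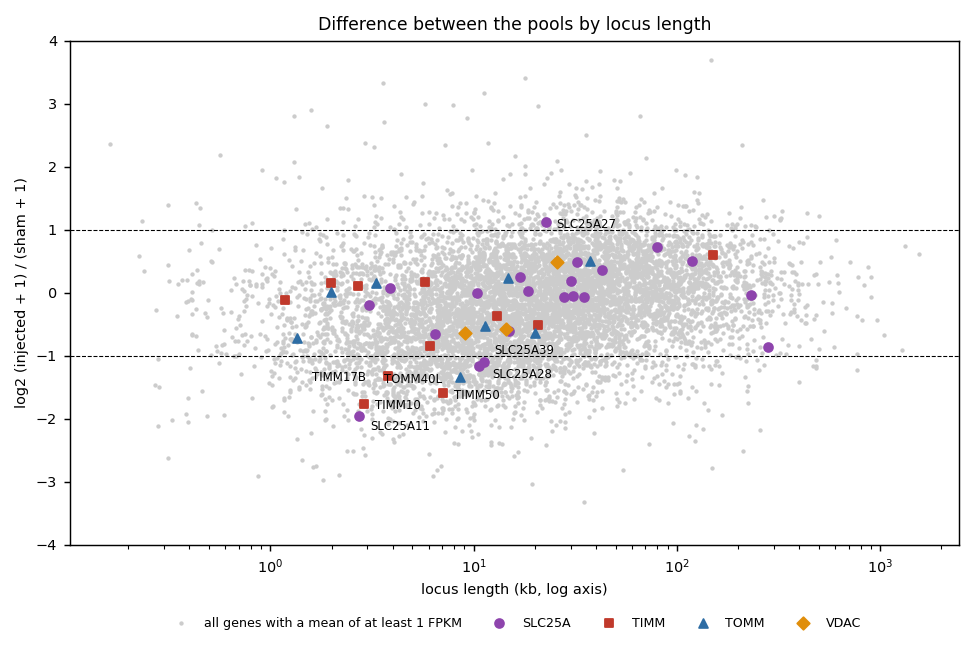
Log2 difference of injected over sham (vertical) by locus length in kb (horizontal, log axis) for SLC25A (purple circles), TIMM (red squares), TOMM (blue triangles) and VDAC (orange diamonds) genes that were compared, over all 7984 genes (grey points, of which 8 lie outside the vertical range); dashed lines mark 2-fold. The 7 genes under the lower line have loci no longer than 11.185 kb, and genes of similar length lie on both sides of 0.

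The share called also moved with level. Among all genes, 10.6% were at least 2-fold lower where the mean was 1 to 5 FPKM, and 21.0% where it was 100 FPKM or more. Of the 8 carrier and import genes whose mean reached 100 FPKM, 2 were lower (TIMM10 and TIMM17B), with a median log2 difference of -0.39, against -0.43 for all genes at that level. Over the 29 members with means of 5 FPKM or more, 5 were lower and none higher, beside 19.6% and 4.96% of all such genes. Of the 12 with a mean of 5 to 20 FPKM, 1 (8.33%) was lower, beside 17.995% of all genes at that level. Their median was -0.02, against -0.20 for all genes at that level. Of the 9 with a mean of 20 to 100 FPKM, 2 (22.2%) were lower, beside 21.5% of all such genes. Of the 14 with a mean of 1 to 5 FPKM, 2 (14.3%) were lower, beside 10.6%. Beside like groups of nuclear genes for mitochondria, 71 mitochondrial ribosomal protein genes had a median of -0.47 with 17 (23.9%) at least 2-fold lower and none higher, and 36 NDUF genes of respiratory complex I had a median of -0.45 with 6 (16.7%) lower and none higher, beside 15.7% and 4.92% of all genes. With equal totals these medians were -0.07 and -0.05, with 7 and 1 genes lower and 5 and 1 higher. Differences between these groups were not tested, since no test over samples was possible.

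Other genes of the import pathway, taken from a list of 46 symbols of which 38 were found, included 33 that reached a mean of 1 FPKM. After siRNA injection 7 of them were lower by 2-fold or more and none was higher by that much, 21.2% against the 15.7% of all genes, with a median log2 difference of -0.42. With equal totals the median was -0.06 and 2 (PAM16 and CLPP) were lower and 2 (HSPD1 and DNAJC15) higher, beside 7.32% and 12.0% of all genes. After the length fit 3 (HTRA2, MIPEP and MTCH1) were lower and 1 higher, beside 8.64% and 7.52% of all genes. PAM16, a regulator of the import motor at TIM23, was 0.610 FPKM in siRNA-injected embryos and 3.34 FPKM in sham embryos, and reached a mean of 1 FPKM through the sham pool. Its partner DNAJC19 was 505 against 403 FPKM, and the motor chaperone HSPA9 was 56.4 against 54.3 FPKM. MTCH1 and MTCH2, distant SLC25 relatives in the outer membrane, were both 2-fold or more lower as deposited, at 50.6 against 123 FPKM and 19.9 against 46.1 FPKM, but not with equal totals, at log2 differences of -0.87 and -0.79. After the length fit MTCH1 was called lower and MTCH2 was not.

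Several other steps of import lay within 2-fold as deposited. CHCHD4 and GFER, the oxidation relay that traps the small TIM proteins between the membranes, were 30.2 against 47.3 FPKM and 27.5 against 51.7 FPKM. The presequence-cleaving peptidase subunits PMPCA and PMPCB were 10.4 against 16.5 FPKM and 12.1 against 16.6 FPKM. HSPD1, the matrix chaperonin that folds imported proteins, was 149.5 FPKM in injected embryos against 76.7 FPKM in sham embryos, a log2 difference of 0.95 as deposited and 1.35 with equal totals, and its cochaperonin HSPE1 was 10697 against 8696 FPKM. BRP44 and BRP44L, symbols of the mitochondrial pyruvate carrier genes MPC2 and MPC1, were 141 against 120.2 FPKM and 210.2 against 258 FPKM.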

How the data were processed

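RNA of each pool was amplified and sequenced by the authors, who mapped reads to bosTau7 with TopHat and estimated abundance with Cufflinks 2.0.2; the deposited FPKM values were upper-quartile normalized and corrected for sequence bias. The gene annotation is not given in the sources used here. A locus in the values is shared by overlapping genes, so its length is not always that of the gene. Counting was not stated to use strand, and genes with near-identical copies may share reads.

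Of 22220 loci, 615 without a symbol (3.37% of FPKM in the injected and 3.41% in the sham pool) were left out, and loci of 1 symbol were summed. Differences were log2 ratios after adding 1 FPKM, over the 7984 genes whose mean reached 1 FPKM, called at 2-fold. All members may be named, and from the pathway list those with a mean of at least 10 FPKM or among the 3 highest and 3 lowest. MIPEP, PITRM1, AFG3L2, UCP1 to UCP3, genes that share a locus with a member and other genes named outside this rule were chosen after their values were seen. Members, lists and rules were chosen with earlier results of these data known, and the partner and paralog ratios in part after the values were seen. Alternatives were pseudocounts of 0.1 and 5 FPKM, other filters, other scalings, the highest locus, the removal of a loess trend (span 0.3) on the length of the locus, 4-fold, and each family alone. Python 3.11.15, pandas 2.3.3, NumPy 2.4.6, SciPy 1.17.1, statsmodels 0.14.6 and matplotlib 3.10.9 were used.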

Additional observations from a re-analysis of the deposited data

How the results depend on the processing

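SLC25A11, TIMM10 and TIMM50 were 2-fold or more lower after siRNA injection under all 8 alternatives that kept 2-fold as the size, the 3 members of which this held. The filter settings and the highest locus could not move these genes, since each has 1 locus and a mean above 5 FPKM. Only the pseudocounts, the scalings and the loess fit could have changed their calls. The count of lower members, 7 as reported, was 4 with a pseudocount of 5 FPKM and with equal totals, 3 after the loess fit on locus length and 0 at 4-fold. The count of higher members, 1 as reported, was 2 with a pseudocount of 0.1 FPKM, where SLC25A40 joined SLC25A27, and 0 with a pseudocount of 5 FPKM, a mean of at least 5 FPKM or 4-fold. No share of all genes stands beside the 3 members kept under all 8 alternatives, or beside the counts at pseudocounts of 0.1 and 5 FPKM. Those counts therefore have no background here. The median log2 difference of -0.058 turned to 0.108 with the median of all genes set to 0, to 0.235 with equal totals and to 0.00477 after the loess fit, and was -0.0658 and -0.0399 with pseudocounts of 0.1 and 5 FPKM, -0.0599 with no filter and -0.0653 with a mean of at least 5 FPKM. By family, 3 of 21 SLC25A genes compared were lower (14.3%) and 1 higher (4.76%), with a median of -0.0329. For TIMM 3 of 11 were lower (27.3%) and none higher, with a median of -0.376. For TOMM 1 of 8 was lower (12.5%) and none higher, with a median of -0.259. None of the 3 VDAC genes was called, and their median was -0.571. Beside these, 15.7% of all genes were lower and 4.92% higher. Across all genes, 1255 were lower and 393 higher as deposited (23.8% of these higher), 882 and 616 with the median set to 0 (41.1%), 587 and 965 with equal totals (62.2%) and 690 and 600 after the loess fit (46.5%). Among called members 1 of 8 was higher, and 1 of 6, 1 of 5 and 1 of 4 under the same alternatives. The cause of these shifts was not tested beyond the construction of each alternative. No 2-fold call of a member changed sign. No paired analysis was possible because each group has 1 library, and leaving out a library was not possible for the same reason. Depth is unknown and limits values near 1 FPKM most.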

Other observations

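Genes named here were chosen from the pathway list after their values were seen, apart from AFG3L2, which is not on it, and they are no list of their own. CLPP, of the matrix ClpXP protease, was 43.8 FPKM in siRNA-injected embryos and 117 FPKM in sham embryos. HTRA2, a protease of the space between the membranes, was 17.5 against 46.7 FPKM, LONP1, the matrix ATP-dependent protease, was 8.03 against 17.9 FPKM, and MIPEP, which trims a subset of imported precursors, was 3.66 against 8.41 FPKM. These 4 were at least 2-fold lower as deposited after adding 1 FPKM. They were among 7 such genes of the 33 compared on that list, 21.2% beside 15.7% of all genes. Other peptidase genes on it stayed within 2-fold, with log2 differences of -0.63 for PMPCA, -0.44 for IMMP2L, -0.42 for PMPCB and -0.41 for IMMP1L. Of all genes, 7.32% were lower with equal totals and 8.64% after the fit on locus length. With equal totals CLPP stayed just past 2-fold, at a log2 difference of -1.001, while HTRA2 was -0.98, LONP1 -0.70 and MIPEP -0.68. After the fit on locus length HTRA2 and MIPEP stayed at least 2-fold lower, while CLPP and LONP1 did not. PITRM1, which degrades cleaved presequences, was 2.46 against 4.96 FPKM, and AFG3L2, a protease subunit of the inner membrane, was 6.33 against 11.3 FPKM, with log2 differences of -0.78 and -0.75 as deposited.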
